A study of Homo sapiens with 6 samples.

Results

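Chemokines that keratinocytes can make were compared between control A431 cells (A431CT, genotype WT) and A431 cells without Desmoglein-2 (Dsg2KO, genotype DSG2 KO). The 10 genes were taken by name from a deposited table of 21462 genes, and they are the CXCR3 ligands CXCL10 and CXCL11, CCL5, the neutrophil-attracting ligands CXCL1, CXCL2, CXCL3 and CXCL8, the membrane-bound ligands CXCL16 and CX3CL1, and CCL20. A431 is an established human keratinocyte line from an epidermoid carcinoma, and both lines were made by CRISPR/Cas9 editing. The knockout is represented by 1 edited line, of which the sources used here do not say whether it is a clone, and the labels name no drug or cytokine. Each condition had 3 libraries of polyA RNA. The study describes them as biological replicates and the labels name no separate cultures, and p-values measure only the spread between these libraries.

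Chemokines are small secreted or membrane-bound proteins that direct the movement of leukocytes through G protein-coupled receptors. In the epidermis, keratinocytes release them in response to IL-1, TNF, IL-17 and interferons, with NF-κB acting at many of their promoters and interferon-activated factors acting at those of the CXCR3 ligands. CXCL1, CXCL2, CXCL3 and CXCL8 attract neutrophils, CXCL10 and CXCL11 attract activated T cells, CCL5 attracts T cells and monocytes, and CCL20 attracts cells that carry CCR6.

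Library totals lay between 12845719 and 16255692 counts, and a floor of 3 counts corresponded to 0.184 to 0.236 CPM (edgeR's library-scaled counts with TMM factors), which covers counting error only. DSG2, the targeted gene, had 4196, 4344 and 4112 counts in A431CT libraries and 758, 902 and 804 in Dsg2KO libraries, a log2 fold change of -2.64 (adjusted p = 1.29e-14, edgeR). A call required an adjusted p-value under 0.05 from edgeR's quasi-likelihood test over 12857 tested genes together with a change of 0.5 or more on the log2 scale in either direction. The keratinocyte genes EGFR, KRT5 and TP63 were well expressed, whereas KRT14 had at most 2 counts in any library. The T cell genes CD3D, CD3E and CD2 had no count, and PTPRC, the pan-leukocyte gene, had 2 to 8 counts per library.

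Of the 10 chemokines, 6 could be judged (CXCL11, CCL5, CXCL1, CXCL2, CXCL3 and CXCL16). CXCL8 and CXCL10 had reads but were too low to test, and CCL20 and CX3CL1 had no count in any of the 6 libraries. Among the 6 tested genes, CXCL11 and CCL5 rose in Dsg2KO cells and 0 fell. Of all tested genes, 2.99% were called higher and 3.03% lower. By edgeR's adjusted p alone the same 2 chemokines were higher and 0 lower, beside 14.3% and 15.3% of all tested genes. The 3 libraries of each condition did not overlap for CXCL11, CCL5 and CXCL3, all higher in Dsg2KO cells, and for CXCL1, lower in Dsg2KO cells, while 21.2% and 21.4% of all tested genes did not overlap in these directions. The median log2 fold change of the 6 genes was 0.29, and that of all tested genes was -0.0048. In bulk samples, a change in the number of cells that express a gene and a change in RNA per cell cannot be told apart.

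**Figure D1:**
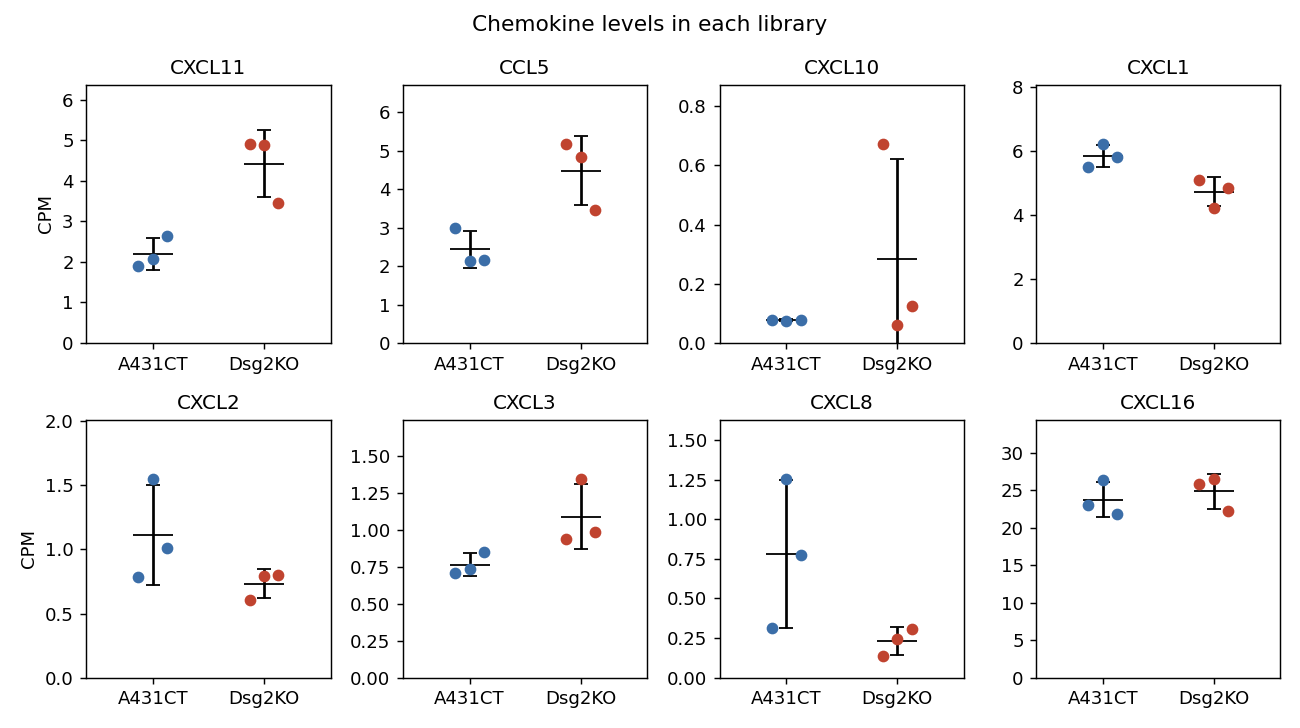
CPM of the 8 chemokines with reads, 1 point per library, with horizontal bars for the mean and vertical bars for 1 SD (n = 3 per condition); each panel has its own axis from 0, and the lower bar of CXCL10 in Dsg2KO cells runs below the axis. CXCL11 and CCL5 lie higher in all 3 Dsg2KO libraries, between 3.46 and 5.17 CPM, while CXCL10 is raised in 1 Dsg2KO library, at 0.671 CPM.

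Promoters from RefSeq (GRCh38.p14, 250 bases before to 50 after each start) were found for 7 of the 10 genes, and those for CCL5, CXCL16 and CX3CL1 were not. The promoters of CXCL10 and CXCL11 are shown because these neighbouring genes share a receptor, and 1 of them rose while the other was too low to test. Capitals mark matches on either strand to GGNNTTTCC, a κB-like motif, and to GAAANNGAA, a repeat found in interferon response elements.
CXCL11 at chr4:76036021-76036320 on the minus strand: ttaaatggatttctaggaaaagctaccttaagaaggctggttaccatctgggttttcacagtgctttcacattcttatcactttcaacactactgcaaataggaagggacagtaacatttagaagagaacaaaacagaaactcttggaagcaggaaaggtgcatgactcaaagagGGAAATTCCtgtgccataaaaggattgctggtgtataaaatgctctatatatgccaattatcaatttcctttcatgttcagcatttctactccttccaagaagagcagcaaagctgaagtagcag
CXCL10 at chr4:76023448-76023747 on the minus strand: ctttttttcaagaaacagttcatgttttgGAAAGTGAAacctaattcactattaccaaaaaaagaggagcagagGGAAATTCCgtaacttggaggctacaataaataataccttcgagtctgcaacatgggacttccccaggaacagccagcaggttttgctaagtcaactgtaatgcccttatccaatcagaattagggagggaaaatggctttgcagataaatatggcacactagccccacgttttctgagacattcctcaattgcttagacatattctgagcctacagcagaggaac
CXCL11 holds a κB-like match on the minus strand that begins 75 bases before the start and no match to the interferon repeat in these 300 bases, and its RefSeq start lies inside the longer GENCODE gene. CXCL10 holds an interferon repeat at position -221 and a κB-like match on the minus strand at -176.

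The stretch from 100 to 41 bases before the start is shown for the neutrophil-attracting genes and CCL20, because all of them carry a κB-like match there. Of these genes CXCL1, CXCL2 and CXCL3 were tested and not called. CXCL8 was too low to test and CCL20 had no count, so neither could have been called. The 3 near copies CXCL1, CXCL2 and CXCL3 carry 2 matches each, of which the first is the same in CXCL8. CXCL10 and CXCL11, shown above, hold the same match on the minus strand, and that of CXCL11 also lies within this stretch.
CXCL1 at chr4:73869293-73869352 on the plus strand: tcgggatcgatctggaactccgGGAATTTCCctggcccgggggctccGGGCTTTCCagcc
CXCL2 at chr4:74099236-74099295 on the minus strand: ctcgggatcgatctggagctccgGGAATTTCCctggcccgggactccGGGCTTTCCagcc
CXCL3 at chr4:74038730-74038789 on the minus strand: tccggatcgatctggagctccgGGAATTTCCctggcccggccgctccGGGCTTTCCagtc
CXCL8 at chr4:73740469-73740528 on the plus strand: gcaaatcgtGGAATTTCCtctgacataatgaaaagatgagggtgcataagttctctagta
CCL20 at chr2:227813742-227813801 on the plus strand: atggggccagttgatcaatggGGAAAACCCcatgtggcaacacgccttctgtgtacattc
The κB-like motif was present in 7 of 7 chemokine promoters and in 6.26% of 27305 promoters. It stood in front of CXCL11, which rose, and of CXCL1, CXCL2 and CXCL3, which did not pass the test. CXCL8 and CXCL10, too low to test, and CCL20, with no read, carried it too. The promoter of CCL5, the other called gene, was not found, and the part of the motif in these values was not tested. The interferon repeat was found in CXCL2, CXCL3 and CXCL10, 3 of 7, against 8.29% of all promoters. TGANTCA, an AP-1 motif, was found in CXCL8 and CXCL11 (7.76% of all promoters), and TATAAA in CCL20, CXCL8 and CXCL11 (12.0% of all promoters). All motifs were searched on both strands. In these 7 promoters no κB-like match overlapped a match to the other 3 motifs. Such matches describe the sequence and are not evidence of a bound factor.

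CXCL11, a ligand of CXCR3 on activated T cells, had 24, 28 and 34 counts in A431CT libraries and 73, 80 and 56 in Dsg2KO libraries. All 3 Dsg2KO libraries were higher than every A431CT library, and Dsg2KO replicate 3 was the lowest of its condition. On the CPM scale the level rose from 2.20 ± 0.391 (SD, n = 3) to 4.42 ± 0.828 (SD, n = 3), a log2 fold change of 1.00 (SE 0.25, 95% interval 0.48 to 1.54, adjusted p = 0.00614, edgeR). The fold of 2.01 therefore had an interval from 1.39 to 2.90. The coefficient of variation among Dsg2KO libraries was 18.7%, where counting error alone gives 12.0% at this depth.

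CXCL11 lies on the minus strand of chromosome 4 (chr4:76033682-76041415, GRCh38, GENCODE 44) inside ART3, which runs on the opposite strand. No exon of 1 gene overlaps an exon of the other. ART3 had 13, 16 and 1 counts in A431CT libraries and 14, 8 and 26 in Dsg2KO libraries, with a log2 fold change of 0.40 (adjusted p = 0.662, edgeR). Whether the authors counted by strand is not given in the sources used here, and with the counts of the pair summed the log2 fold change was 0.87 (adjusted p = 0.0037, edgeR). The 10 nearest tested genes around CXCL11 had log2 fold changes between -0.33 and 0.40, with a median of -0.01, and 0 of them were called.

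CXCL10, the other CXCR3 ligand among the 10 genes, had 1, 1 and 1 counts in A431CT libraries and 10, 1 and 2 in Dsg2KO libraries. Only Dsg2KO replicate 1 stood above the floor, and the conditions overlapped. Over the summed counts of 3 and 13, the ratio of Dsg2KO to A431CT was 3.58 with an exact 95% interval of 0.984 to 19.6, which covers counting error only. Without Dsg2KO replicate 1 the sums were 3 and 3 and the ratio was 1.20 (0.161 to 8.99). Without the filter on low counts, edgeR gave a log2 fold change of 1.76 (adjusted p = 0.314). CXCL10 (chr4:76021118-76023497, minus strand) also lies inside ART3 without a shared exon. CXCL9, the remaining CXCR3 ligand, was named after its values were seen, and it had 0, 0 and 2 counts in A431CT libraries and 3, 0 and 1 in Dsg2KO libraries, which is at the floor. CXCL11 was thus the one CXCR3 ligand with enough reads for a test.

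CCL5, a ligand of CCR1 and CCR3 among other receptors, had 38, 29 and 28 counts in A431CT libraries and 77, 79 and 56 in Dsg2KO libraries. The conditions did not overlap, and Dsg2KO replicate 3 was again the lowest of its condition. The level rose from 2.43 ± 0.482 CPM (SD, n = 3) to 4.49 ± 0.903 CPM (SD, n = 3), a log2 fold change of 0.88 (SE 0.25, 95% interval 0.36 to 1.41, adjusted p = 0.0137, edgeR). The call depended on single libraries. It was lost when Dsg2KO replicate 1 was left out (0.77 on the log2 scale, edgeR adjusted p = 0.0702) and when Dsg2KO replicate 2 was left out (0.82, edgeR adjusted p = 0.0537). The ratio of CXCL11 to CCL5 counts was 0.632, 0.966 and 1.21 in A431CT libraries and 0.948, 1.01 and 1 in Dsg2KO libraries, so the range in Dsg2KO cells lay within that in A431CT cells.

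CCL5 lies on the minus strand of chromosome 17 (chr17:35871491-35880793), and no other gene of the table that was placed on the genome overlaps it. Its 10 nearest tested genes had log2 fold changes between -0.29 and 0.24 with a median of -0.14, and 0 were called. Of the 50-base windows in its transcript, 18.5% (231 of 1250) occur in transcripts of other genes, and the authors' handling of reads that match several places is not given in the sources used here. No 50-base window of CXCL11 was shared in this way.

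**Figure D2:**
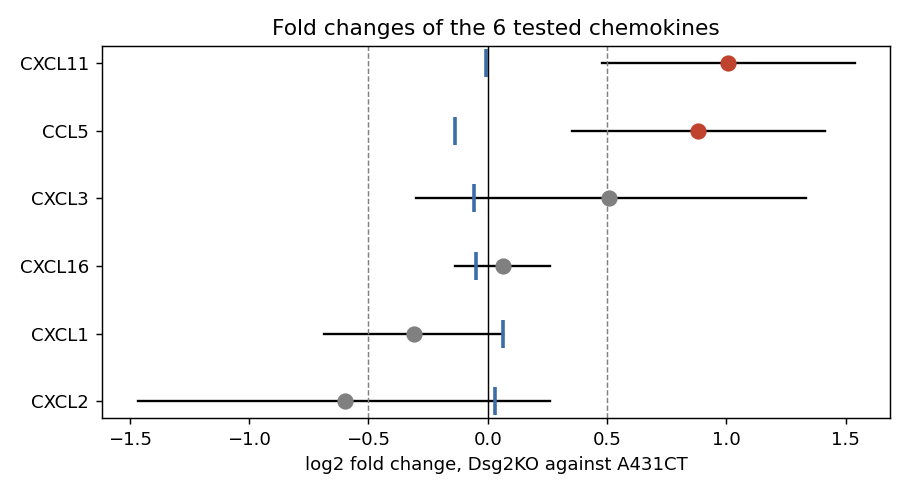
Log2 fold change (Dsg2KO against A431CT) of the 6 tested chemokines with 95% intervals, red where the gene was called; the blue tick is the median of the 10 nearest tested genes, and dashed lines mark the fold change minimum of 0.5. The intervals of CXCL11 and CCL5 lie above 0, from 0.48 and 0.36 upward, while the other 4 include 0. The nearest genes of CXCL1, CXCL2 and CXCL3 include each other.

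CXCL1, a ligand of CXCR2, was the neutrophil-attracting chemokine with the most reads. It had 70, 84 and 75 counts in A431CT libraries and 76, 69 and 78 in Dsg2KO libraries, or 5.84 ± 0.345 and 4.71 ± 0.449 CPM (SD, n = 3 each). Every Dsg2KO library was below every A431CT library on the CPM scale, but the log2 fold change of -0.31 did not pass the test (SE 0.18, 95% interval -0.68 to 0.06, adjusted p = 0.208, edgeR). The interval leaves out any rise above 0.06 on the log2 scale and allows a fall of 0.68.

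CXCL2 had 10, 21 and 13 counts in A431CT libraries and 9, 13 and 13 in Dsg2KO libraries, and the conditions overlapped. Its log2 fold change was -0.60 with a wide 95% interval from -1.47 to 0.26 (adjusted p = 0.293, edgeR). CXCL3 had 9, 10 and 11 counts in A431CT libraries and 14, 22 and 16 in Dsg2KO libraries, each Dsg2KO library above each A431CT library on the CPM scale. Its log2 fold change of 0.51 also missed the threshold (95% interval -0.30 to 1.33, adjusted p = 0.346, edgeR). At these depths neither a 2-fold change of CXCL2 downward nor one of CXCL3 upward was left out by the interval.

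These 3 genes are near copies of each other. Over 321 coding bases CXCL2 and CXCL3 were identical at 94.4%, CXCL1 and CXCL2 at 93.5%, and CXCL1 and CXCL3 at 90.7%, while the next closest pair of the 10 genes, CXCL10 and CXCL11, reached 55.7%. Of the 50-base windows of their transcripts, 5.33% for CXCL1, 10.1% for CXCL2 and 5.26% for CXCL3 occur in another gene's transcript. Their separate values are therefore uncertain, and by how much was not tested. The ratio of CXCL3 to CXCL2 counts was 0.9, 0.476 and 0.846 in A431CT libraries and 1.56, 1.69 and 1.23 in Dsg2KO libraries. CXCL3 thus had fewer counts than CXCL2 in all 3 A431CT libraries and more in all 3 Dsg2KO libraries, a difference that was noticed in the data and not tested. The sum over the 3 genes was 89, 115 and 99 counts in A431CT libraries and 99, 104 and 107 in Dsg2KO libraries, with a log2 fold change of -0.24 (95% interval -0.56 to 0.08, adjusted p = 0.26, edgeR).

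CXCL8, the ligand of CXCR1 and CXCR2 also known as IL-8, had 4, 17 and 10 counts in A431CT libraries and 2, 4 and 5 in Dsg2KO libraries. The CPM values of 0.315, 1.25 and 0.775 in A431CT libraries lay above those of 0.134, 0.245 and 0.309 in Dsg2KO libraries, with the nearest pair almost equal. Over the sums of 31 and 11 counts the ratio of Dsg2KO to A431CT was 0.293 (exact 95% interval 0.133 to 0.599), an interval for counting error that does not include the spread between libraries. Without A431CT replicate 2 the ratio was 0.424 (0.174 to 1.01). Without the filter on low counts edgeR gave -1.72 on the log2 scale (adjusted p = 0.0844), and DESeq2 gave -1.76 (adjusted p = 0.140), and neither passed. When A431CT replicate 1, the library with the fewest CXCL8 counts of its condition, was left out, CXCL8 passed the filter and was called lower, by -2.10 on the log2 scale (adjusted p = 0.0217, edgeR). With any 1 of the Dsg2KO libraries left out it passed the filter too, with values from -1.99 to -1.48 and adjusted p-values of 0.0769 to 0.150 in edgeR, none of them called.

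CXCL1, CXCL3, CXCL2 and CXCL8 lie in 1 cluster on chromosome 4, with CXCL8 at chr4:73740519-73743716 and CXCL1 at chr4:73869393-73871308 on the plus strand, and CXCL3 at chr4:74036589-74038807 and CXCL2 at chr4:74097040-74099196 on the minus strand. The 10 nearest tested genes had median log2 fold changes of 0.06 around CXCL1, 0.03 around CXCL2 and -0.06 around CXCL3, with 0 called around each. Each set includes the other tested chemokines of the cluster. The sets also reach far, to DCK at 2838 kb from CXCL1 and 3006 kb from CXCL3.

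CXCL16, a membrane-bound ligand of CXCR6 that is released by cleavage, was the most abundant of the 10 genes. It had 293, 358 and 282 counts in A431CT libraries and 386, 433 and 359 in Dsg2KO libraries, or 23.8 ± 2.35 and 24.9 ± 2.33 CPM (SD, n = 3 each), and the conditions overlapped. The log2 fold change was 0.06 (SE 0.09, 95% interval -0.14 to 0.26, adjusted p = 0.661, edgeR). This was the narrowest interval of the 6, and it lay below those of CXCL11 and CCL5. The gene (chr17:4733533-4739928, minus strand) shares 76 exonic bases with MED11 and 96 with ZMYND15, both on the opposite strand. MED11 had a log2 fold change of 0.03 (adjusted p = 0.903, edgeR). ZMYND15 was too low to test, and its counts added to those of CXCL16 gave a log2 fold change of 0.08.

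CX3CL1, the other membrane-bound chemokine (chr16:57372477-57385044, plus strand), and CCL20, the ligand of CCR6 (chr2:227805739-227817564, plus strand), were at 0 counts in all 6 libraries. A count of 0 allows a level of up to 0.184 to 0.236 CPM per library, so a change under that level was not detectable at this depth. Neither gene can be compared between conditions.

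Divided by exon length, CXCL16 stood first in A431CT cells at 8.51 ± 0.842 CPM per kilobase (SD, n = 3), above the median of 6.22 over 12258 tested genes. It was followed by CXCL1 at 4.29 ± 0.253, CCL5 at 1.78 ± 0.353, CXCL11 at 1.23 ± 0.220, CXCL2 at 0.797 ± 0.280, CXCL3 at 0.345 ± 0.0345, CXCL8 at 0.302 ± 0.181 and CXCL10 at 0.0652 ± 0.00219 CPM per kilobase. The libraries of CXCL11 and CXCL2 overlapped, as did those of CXCL3 and CXCL8, so these neighbours in the order cannot be separated. In Dsg2KO cells CXCL16 was again first at 8.90 ± 0.833 CPM per kilobase, and the next 3 were CXCL1 at 3.46 ± 0.330, CCL5 at 3.29 ± 0.662 and CXCL11 at 2.48 ± 0.465. There the libraries of CXCL1 and CCL5 overlapped and so did those of CCL5 and CXCL11, whereas in A431CT cells CXCL1 was above both without overlap. CXCL2 and CXCL3 followed at 0.525 ± 0.0808 and 0.492 ± 0.0999 CPM per kilobase and overlapped too. CXCL11 moved from percentile 16.4 of the tested genes in A431CT cells to 27.3 in Dsg2KO cells, and CCL5 from 21.8 to 33.4.

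**Figure D3:**
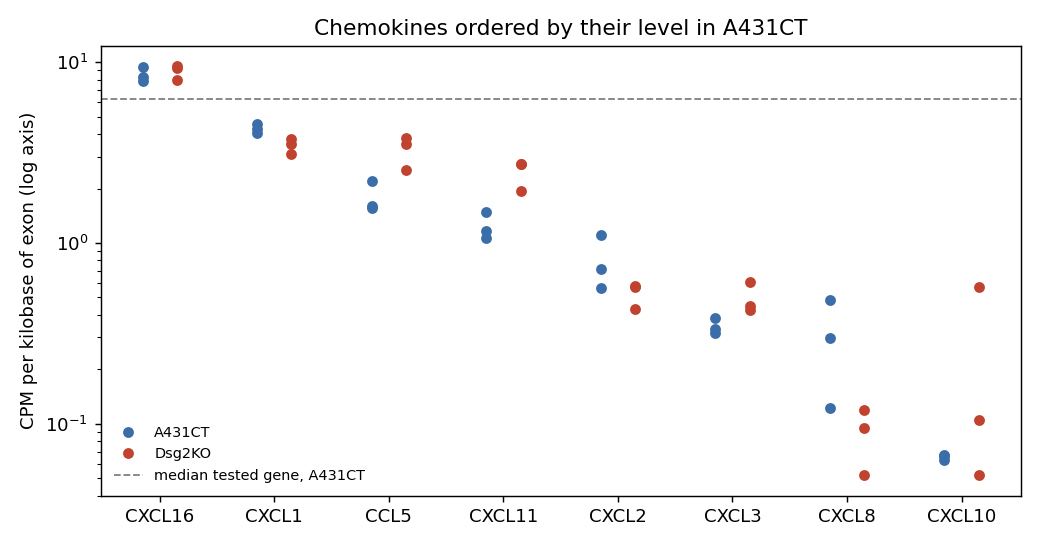
CPM per kilobase of exon on a log axis for the 8 chemokines with reads, ordered by the A431CT mean, with 1 point per library (3 per condition, some hidden by overlap) and a dashed line at the median tested gene in A431CT, 6.22. CXCL16 lies above that line in both conditions and the other 7 below it, with CCL5 and CXCL11 close to CXCL1 in Dsg2KO cells.

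The other chemokine ligands had few or no reads. Of 10 further CXC ligands 5 had no count in any library and 0 could be tested. CXCL13 had the most reads of them, with 3 to 11 counts per library. Of 26 further CC and C ligands in the table, 14 had no count and 3 were tested (CCL22, CCL28 and XCL2), of which 0 were called by edgeR, 0 had an adjusted p under 0.05, and CCL22, the highest, had 3.76 ± 0.569 and 3.75 ± 0.348 CPM (SD, n = 3 each).

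Most receptors for these ligands had few or no reads, and of the receptors named here CCR3, CXCR2 and ACKR3 were tested. CXCR3, the receptor of CXCL10 and CXCL11, and CXCR6, that of CXCL16, had no count in any library. CXCR1 and CX3CR1 had at most 1 count in any library, and ACKR1, which binds many of these ligands, had none. CCR1 had 4, 1 and 1 counts in A431CT libraries and 5, 4 and 12 in Dsg2KO libraries, too low to test. CCR6 had 0 to 6 counts per library. CXCR2, the receptor of CXCL1, CXCL2, CXCL3 and CXCL8, had 11, 11 and 12 counts in A431CT libraries and 8, 15 and 21 in Dsg2KO libraries (log2 fold change 0.09, adjusted p = 0.899, edgeR). CCR3, a CCL5 receptor, had 34, 27 and 21 counts and 28, 35 and 21 counts (log2 fold change -0.24, adjusted p = 0.612, edgeR). Of 18 receptors 3 were tested and 0 were called. ACKR3, an atypical receptor that binds CXCL11, had the highest level of the receptors named here, with 50.1 ± 0.958 and 52.1 ± 1.59 CPM (SD, n = 3 each) and a log2 fold change of 0.06 (adjusted p = 0.478, edgeR).

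ADAM10 and ADAM17, proteases that release CXCL16 and CX3CL1 from the membrane, were both expressed. ADAM10 had 280 ± 8.70 and 301 ± 18.9 CPM (log2 fold change 0.11, adjusted p = 0.0963, edgeR). ADAM17 had 37.1 ± 3.49 and 32.2 ± 0.707 CPM with a log2 fold change of -0.20 (adjusted p = 0.0495, edgeR), which passed the adjusted p but not the fold change minimum. Of the 4 tested proteases and their regulators 0 were called.

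In a list of IL-1, TNF, IL-17 and NF-κB signaling genes, 18 were tested and 0 were called by edgeR, with a median log2 fold change of -0.02. By adjusted p alone 2 of them (IL17RA and BCL3) were higher and 4 (IL1A, IL1B, TRAF3IP2 and NFKBIA) lower, all by less than 0.5, counts near the shares of 14.3% and 15.3% over all tested genes. TNFRSF1A, a TNF receptor and the gene of the highest mean count over the 6 libraries in the list, had a log2 fold change of 0.09 (adjusted p = 0.126, edgeR), and RELA, the NF-κB subunit p65, one of -0.03 (adjusted p = 0.680, edgeR). TNF itself had 1 count in 1 library. These are mRNA levels and do not measure NF-κB activity. By immunofluorescence the study scored more Dsg2KO than A431CT cells with RelA protein in the nucleus after serum.

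Of 12 tested interferon pathway genes 3 rose, 0 fell, and the median log2 fold change was 0.17, beside 2.99% of all tested genes called higher. By adjusted p alone 7 of the 12 were higher, beside 14.3% of all tested genes. IRF9, a DNA-binding factor of the interferon response, had 9, 28 and 23 counts in A431CT libraries and 77, 145 and 102 in Dsg2KO libraries, and it rose by 2.15 on the log2 scale (SE 0.32, adjusted p = 1.06e-04, edgeR). IFNGR2, a chain of the interferon γ receptor, rose by 0.72 (adjusted p = 5.33e-05, edgeR). It lies on chromosome 21, where the 121 tested genes had a median of 0.39 on the log2 scale, with 88.4% of them higher in Dsg2KO cells. IFNAR1, also among the genes higher by adjusted p alone, lies there too, at 0.24 (adjusted p = 0.00383, edgeR). JAK2, a kinase of the interferon γ receptor, rose by 0.53 (adjusted p = 0.0103, edgeR). It had 0.44 without A431CT replicate 1 (edgeR adjusted p = 0.0513) and 0.46 without Dsg2KO replicate 3 (edgeR adjusted p = 0.0502). IFNG and IFNL2 had no count, and IFNB1, IFNL1 and IFNL3 had at most 4 counts in any library. The part of these genes in the rises of CXCL11 and CCL5 was not tested.

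**Figure D4:**
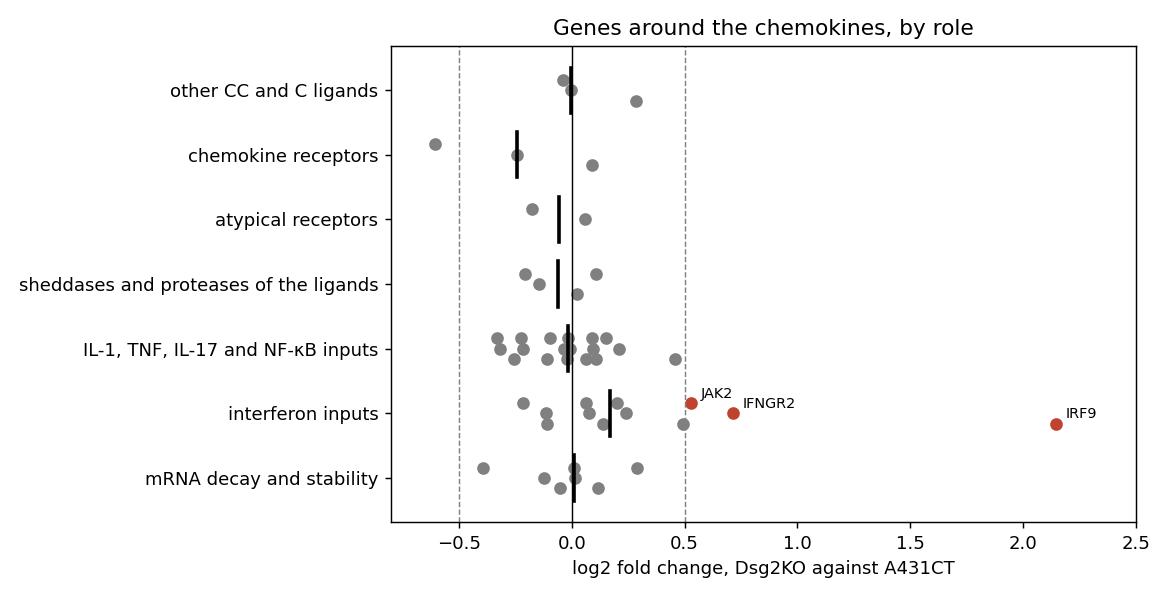
Log2 fold change (Dsg2KO against A431CT) of each tested gene in lists around the chemokines, 1 point per gene, red where called higher, with a black bar at the list median and dashed lines at the fold change minimum of 0.5; vertical offsets only separate the points. The 3 called genes, JAK2 at 0.53, IFNGR2 at 0.72 and IRF9 at 2.15, are all in the interferon list, and no gene of the other 6 lists shown was called.

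Some chemokine mRNAs are short-lived, and of 7 tested genes of mRNA decay and stability 0 were called. By adjusted p alone ZFP36L1 was higher (log2 fold change 0.29) and ZC3H12A (-0.39) and ELAVL1 (-0.12) were lower, 1 and 2 of 7 genes beside 14.3% and 15.3% of all tested genes. KHSRP, the highest of that list, had a log2 fold change of -0.05 (adjusted p = 0.299, edgeR).

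Markers of other cell types were compared because CCL5 and CXCL11 are also made by leukocytes, endothelial cells and fibroblasts. Of 9 leukocyte markers 2 were tested and 0 called, and their summed level was 539 to 570 CPM in A431CT libraries and 494 to 514 CPM in Dsg2KO libraries, almost all of it from CSF1R (552 ± 15.6 and 502 ± 10.6 CPM, log2 fold change -0.14). Of 5 fibroblast markers 1 was tested and 0 called, with COL1A1 the highest and a summed level of 1.94 to 3.17 CPM against 1.73 to 3.62 CPM. Of 3 endothelial markers 2 rose, and their summed level was 8.45 to 11.3 CPM in A431CT libraries and 15.02 to 15.5 CPM in Dsg2KO libraries. CDH5 rose by 0.76 on the log2 scale (adjusted p = 0.0035, edgeR) and PECAM1 by 0.54 (adjusted p = 0.0466, edgeR), the latter with an adjusted p of up to 0.150 when a library was left out. VWF, the remaining endothelial marker, had 1.17 ± 0.124 and 1.38 ± 0.156 CPM and was not called. Of 9 tested keratinocyte markers KRT6A, a keratin of activated keratinocytes, fell by 1.03 on the log2 scale (adjusted p = 5.62e-04, edgeR), and the other 8 were not called. The part of these marker genes in the chemokine values was not tested.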

How the data were processed

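Per the labels, polyA RNA from 3 A431CT and 3 Dsg2KO samples was sequenced as paired-end libraries. The authors trimmed the reads, aligned them to GRCh38 with CLC Genomics Workbench 23 and deposited counts per gene symbol without normalization; the annotation, strand setting and treatment of multi-mapped reads are not given in the sources used here. All columns were mapped by name. The deposited counts were analysed with R 4.3.3 and edgeR 4.0.16 (TMM, filterByExpr with a minimum count of 10 and a minimum total of 15, quasi-likelihood test, Benjamini-Hochberg adjustment over 12857 genes). The thresholds of 0.05 and 0.5 follow the study's methods. The 95% intervals come from the fitted coefficients and their standard errors. The fit was also run on counts simulated under a negative binomial model from these data, which checks the code and not the assumptions of the model.

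The 10 genes, the lists and the tests were chosen with earlier results of these data known. All 10 genes were named, with DSG2, overlapping genes, the receptors of the members, ADAM10, ADAM17, and each list's called genes and gene of the highest mean count; other list genes were named after their values were seen, and some genes of the lists are not reported here by name. Exon lengths, positions and coding sequences came from GENCODE 44, which matched 19491 symbols, and promoters from RefSeq. Identity was computed on coding bases in place of the planned protein comparison with Biopython 1.88. Alternatives were RLE factors, total counts, 2 other filters, DESeq2 1.42.0, the likelihood ratio test, a replicate block, a fold change minimum of 1, each library left out, and summed counts of overlapping or near-identical genes, the last chosen after seeing the data. Libraries of 1 condition differed by more than counting error (chi-square per degree of freedom of 2.64 to 4.14). Figures were drawn with matplotlib 3.10.9.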

Additional observations from a re-analysis of the deposited data

How the results depend on the processing

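The number of chemokines called was 2 under each of the other normalizations, filters and tests, and 1 with a fold change minimum of 1, where CCL5 was lost. CXCL11 passed that minimum narrowly, at 1.005 in the main fit, and was below it at 0.997 with the replicate block and 0.873 summed with ART3. Leaving out each library in turn gave 1 to 3 calls, with and without the fold change minimum of 0.5. CCL5 was lost without Dsg2KO replicate 1 or 2, and CXCL8 was gained, as lower, without A431CT replicate 1. Over all alternatives the log2 fold change stayed between 0.87 and 1.15 for CXCL11 (adjusted p 6.91e-04 to 0.0346) and between 0.77 and 1.05 for CCL5 (adjusted p 0.00342 to 0.0702). It lay between -0.37 and -0.23 for CXCL1, -0.79 and -0.28 for CXCL2, 0.33 and 0.60 for CXCL3, and 0.0062 and 0.15 for CXCL16, none past the threshold. CXCL2 and CXCL3 have no value under a minimum of 10 counts in every library, which both miss. With the replicate block 2 chemokines were called, and CCL5 was at 0.88. Libraries of the same number had residual correlations of 0.0333, 0.0288 and 0.0802. Libraries of different numbers were not compared in this way, so these values cannot show whether the number marks a shared culture or day. Without the filter on low counts 5 interferon pathway genes were called in place of 3, among them IFNAR2, whose 17 counts were all in Dsg2KO replicate 1. With a library left out the number was 2 to 4. JAK2 and PECAM1 lost their calls in some alternatives, PECAM1 also with DESeq2 (adjusted p = 0.123). Low counts left CXCL8 and CXCL10 untested and the intervals of CXCL2 and CXCL3 wide. CCL20 and CX3CL1 had no count, and the cause was not tested.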
